A study of Mus musculus with 6 samples.

Results

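REST silences neuronal genes by bringing repressor enzymes to its binding sites, and the genes described here are 52 that encode REST, the enzymes and subunits it works with, and the proteins that set how long REST itself lasts. They were chosen by name, using the array's gene symbols or their updated forms, from 16593 genes named on the array. Of the 52, 47 had at least 1 probe and 5 (Rcor3, Rbbp4, Ssrp1, Ctbp2 and Suv39h1) were not analysed here. A probe was tested when it was detected above negative controls on at least 3 of the 6 arrays, and 42 of the 47 genes had such a probe. Rest, Ctbp1, Ezh1, Cbx7 and Mbd2 had probes that did not reach this level.

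RNA came from whole brains of mouse embryos at E12.5 on a C57/BL6 background, 1 array per brain. The 3 knockout brains carried Nestin Cre+ together with p53 fl/fl and Rest GTi/GTi, which means that a Cre recombinase driven in neural progenitors turned an invertible gene trap in both copies of Rest to its disruptive orientation and deleted floxed p53. The 3 control brains, from littermates, were p53 fl/fl and Rest GTi/GTi with no Cre, so both groups carried the trap and the floxed alleles. The presence of Cre, the loss of Rest and the loss of p53 therefore cannot be told apart in these data, and cells that had never expressed this Cre would keep both genes.

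REST binds a DNA element in the control regions of neuronal genes and carries a repressor arm at each end of the protein. The amino-terminal arm recruits SIN3 with the class I histone deacetylases HDAC1 and HDAC2, and the carboxy-terminal arm recruits CoREST, which holds the demethylase LSD1, the same deacetylases and, through further partners, the H3K9 methyltransferase G9a. Deacetylases remove acetyl groups that mark active genes, LSD1 removes methyl groups from H3K4, G9a adds methyl groups to H3K9, and polycomb complexes place H3K27 methylation and H2A ubiquitin. In neural progenitors REST is present while these complexes act on many genes besides its own targets. As progenitors become neurons, REST is phosphorylated, tagged with ubiquitin and destroyed. The comparison asks whether the RNA of this machinery differed in brains where REST was removed.

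The 3 small CTD phosphatase genes among the members each lie around a microRNA of the miR-26 family. The microRNAs are shown because Ctdsp1 gave the lowest p of the members measured, and because genes of this family are known hosts of miR-26. The sequences are from RefSeq on GRCm38.p6, and all 3 hairpins read on the plus strand. In the mature forms the capitals mark the seed, bases 2 to 8, which pairs with target transcripts.
mmu-miR-26a-5p: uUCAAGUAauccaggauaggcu
mmu-miR-26b-5p: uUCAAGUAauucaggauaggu
The seed was the same in both. Counted from 1 at the 5′ end of mmu-miR-26a-5p, the sequences differed by C11U and C21U, with 19 of 21 shared positions identical. The hairpins follow, with the mature 5p arm in capitals.
Mir26b in the span of Ctdsp1, chr1:74394310-74394394: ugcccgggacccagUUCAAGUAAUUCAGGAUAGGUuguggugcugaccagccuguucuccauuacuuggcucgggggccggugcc
Mir26a-1 in the span of Ctdspl, chr9:119031796-119031885: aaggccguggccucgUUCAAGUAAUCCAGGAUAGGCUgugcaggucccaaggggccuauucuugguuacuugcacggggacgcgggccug
Mir26a-2 in the span of Ctdsp2, chr10:126995530-126995613: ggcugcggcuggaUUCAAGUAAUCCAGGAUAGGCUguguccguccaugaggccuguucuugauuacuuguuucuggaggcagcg
The levels of the microRNAs themselves were not analysed here, and the values below are those of the host genes' messenger RNA.

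The arrays detected 52.2% to 54.1% of 25696 probes. The array of knockout replicate 2 stood apart, with a score of 40.7 on a first principal component that held 32.5% of the variance, against -14.8 to -0.839 on the other 5. On that array the median marker of mesenchyme and meninges stood at -2.79 relative to the control mean on the log2 scale, that of choroid plexus at -1.46 and that of endothelium and pericytes at -0.96, while the median REST target stood at 0.59 and the median member at 0.09. On knockout arrays 1 and 3 the median REST target stood at 0.17 and 0.14. Of 13 measured REST targets, 11 were higher and 2 lower in the knockout. Their median difference was 0.34, and 0.15 without knockout replicate 2. Of all 9408 genes, 4585 were higher, with a median difference of -0.01. Snap25, Glra1 and Unc13a of the target list were not measured, and the list was chosen with earlier results of these data known. Markers of the labelled tissue were present, with 8 of 10 apical progenitor genes and 9 of 10 young neuron genes measured. Because whole brains were measured, fewer cells of a type and less RNA per cell cannot be told apart. Xist, the RNA of the inactive X chromosome, was high in 3 brains (12.16 in knockout replicate 1, 12.13 and 12.31 in control replicates 1 and 3), against 6.53 to 6.61 in the rest.

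No member passed the test that compared knockout with control brains over all probes. Limma's moderated test passed 0 of 42 member genes at an unadjusted p under 0.05. Of all 9408 genes 4.17% passed, 1.72% higher and 2.44% lower in the knockout. Fewer passed at the members' own levels. Among genes whose level fell between the quartiles of the members, 1.65% of 3464 genes and 0 of 20 members passed. After Benjamini-Hochberg adjustment over 13755 probes the test passed 0 probes of any gene, with a lowest adjusted p of 0.383, and every member had an adjusted p of 0.999. For each gene the tested probe with the highest mean level stood for the gene. Over all 61 tested probes of the members, 3 passed the unadjusted threshold, 1 higher and 2 lower, which is 4.92% of the members' probes. Of all probes 4.59% passed, 2.25% higher and 2.34% lower.

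The differences of the members were similar in size to those of other genes, with a median size of 0.09 on the log2 scale against 0.11 over all genes. Their median difference, knockout minus control, was 0.04, with 24 genes above 0 and 18 below, and the median over all genes was -0.01. Single members ran from -0.35 for Ctdsp1 to 0.49 for Sap18, and 0 of 42 passed 1.5-fold, where 3.20% of all genes did. At levels between the quartiles of the members, 27 of 3464 genes and 0 of 20 members did. The 3 knockout values lay wholly apart from the 3 control values in 1 of 42 members, Ctdsp1, against 9.07% of all genes. The shares past 1.5-fold and with groups apart were under those of all genes, and the share above 0 was not (24 of 42 members, 4585 of 9408 genes). These are descriptions of a chosen list and were not tested as a set.

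**Figure D1:**
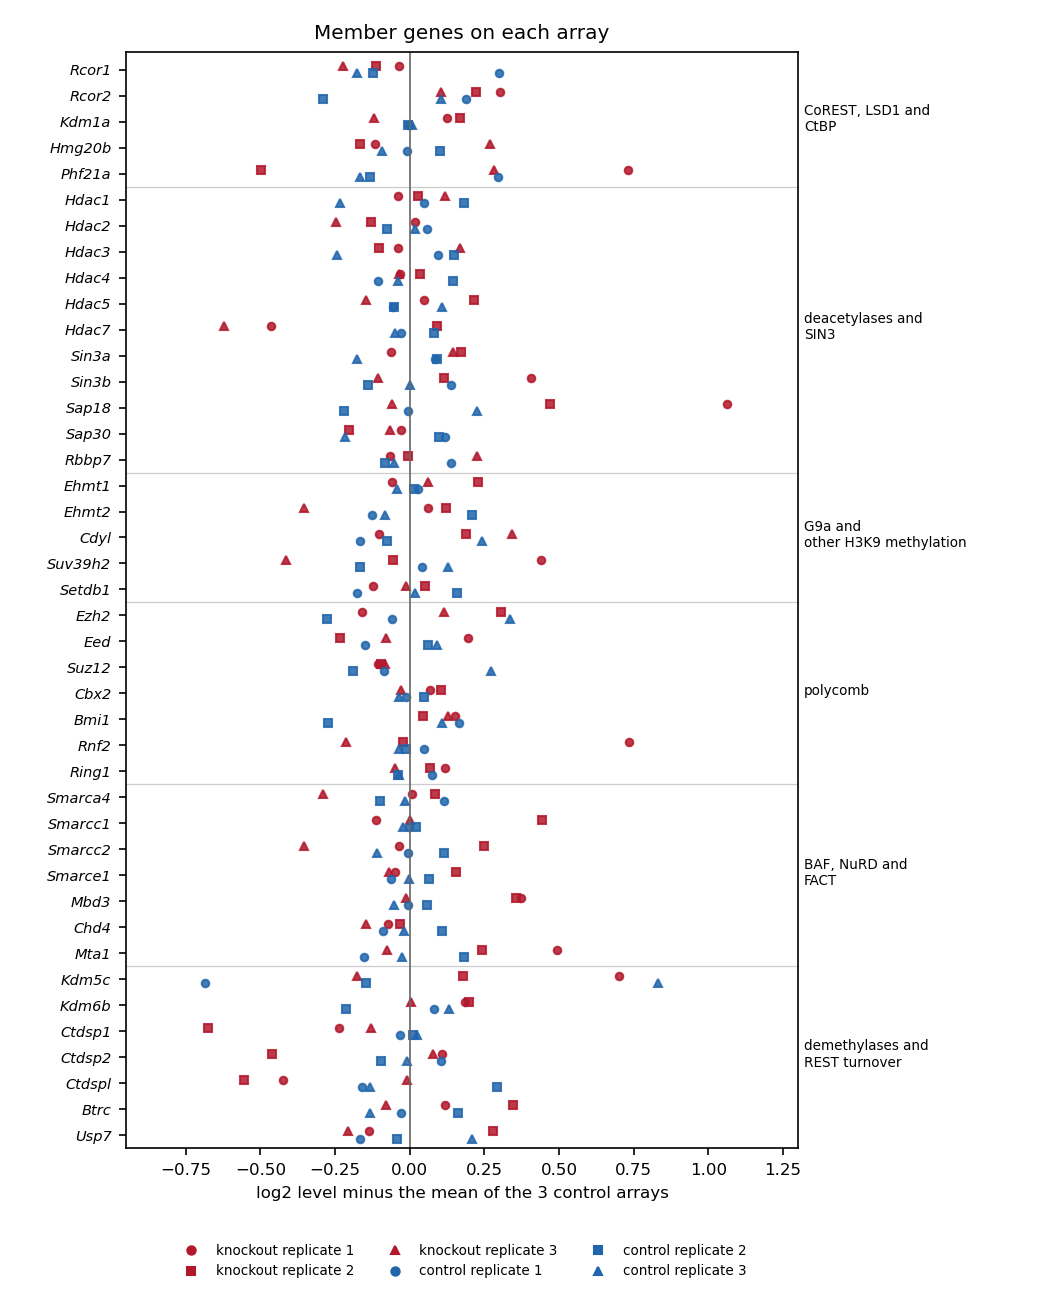
Each row is 1 of the 42 tested member genes and each point 1 array (knockout in red, control in blue, replicates 1 to 3 as circles, squares and triangles), on a horizontal axis of log2 level minus the mean of the 3 control arrays, with lines between the 6 groups of genes. The groups of points overlap for every gene but Ctdsp1, and Sap18 has the point farthest to the right, from knockout replicate 1.

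What the arrays could have missed is set by the 95% intervals of the differences. For 33 of the 42 members the interval of the brightest probe lay wholly within 1.5-fold in either direction, which is 78.6% against 58.6% of all genes. Other probes of a gene could have wider intervals. Over all 61 tested probes of the members, 40 stayed within 1.5-fold, or 65.6% against 55% of all probes. For 40 of 42 members the interval of the brightest probe lay within 2-fold, against 89.1% of all genes, and the exceptions were Sap18 and Kdm5c. The 9 members whose interval went beyond 1.5-fold were Rcor2, Phf21a, Hdac7, Sap18, Rnf2, Mta1, Kdm5c, Ctdsp1 and Ctdspl. Intervals narrow at higher levels, and among genes whose level fell between the quartiles of the members, 85% of 20 members and 81.6% of 3464 genes stayed within 1.5-fold. The median SD within groups was 0.182 for members and 0.202 for all genes.

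REST itself could not be followed. Its 1 probe, detected on 0 of 6 arrays, read 5.30, 5.65 and 5.33 on the log2 scale in the knockout brains, replicates 1 to 3, and 5.17, 5.26 and 5.21 in the control brains. All 6 values are at background, so no fold was given and the genotype labels were not checked by this probe.

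Among CoREST, LSD1 and CtBP, 5 of 8 genes were measured, with a median difference of 0.06. CoREST proteins bridge LSD1 to the deacetylases, and the 3 paralogs are encoded by Rcor1, Rcor2 and Rcor3. Rcor1 was at 9.13, 9.05 and 8.94 in knockout replicates 1 to 3 and at 9.46, 9.04 and 8.99 in control replicates 1 to 3. Rcor2, the paralog known for its place in neural progenitors and embryonic stem cells, was at 11.48, 11.40 and 11.28 against 11.37, 10.89 and 11.28. For Rcor1 control replicate 1 was the highest array, for Rcor2 control replicate 2 was the lowest, and the groups overlapped in both. The differences were -0.12 (SE 0.16, unadjusted p = 0.467, limma) for Rcor1 and 0.21 (SE 0.16, unadjusted p = 0.231, limma) for Rcor2, the lowest p of this group, and the difference between the paralogs was not tested.

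Kdm1a encodes LSD1, the demethylase that removes the active H3K4 mark. Its probe read 14.07, 14.12 and 13.83 in the knockout and 13.94, 13.94 and 13.95 in the control brains. The control arrays were within 0.01 of each other and lay inside the range of the knockout arrays, and the difference was 0.06 with a 95% interval of -0.24 to 0.36. Hmg20b, which encodes the BRAF35 subunit that helps CoREST bind DNA, had a difference of -0.0043 (SE 0.15). Phf21a encodes BHC80, the subunit that reads unmethylated H3K4, and its values spread widely, at 8.13, 6.89 and 7.68 against 7.69, 7.26 and 7.23. Its lowest array was knockout replicate 2, and the difference was 0.17 with that array and 0.51 without it, neither passing the test (unadjusted p = 0.0591 without it, limma). CtBP proteins are co-repressors that sense NADH, and the Ctbp1 probe was detected on 0 arrays, at 6.15, 5.83 and 5.37 in the knockout and 6.05, 5.89 and 5.73 in the control brains.

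The deacetylases and SIN3 subunits, 11 of 12 measured, had a median difference of 0.04. HDAC1 and HDAC2 are the paired catalytic subunits shared by SIN3, CoREST and NuRD. Hdac1 was at 11.50, 11.57 and 11.66 in the knockout and 11.59, 11.72 and 11.31 in the control brains. Hdac2 was at 15.23, 15.08 and 14.96 against 15.27, 15.13 and 15.23. Both genes overlapped between genotypes, Hdac1 with a difference of 0.04 and an interval of -0.31 to 0.38, and Hdac2 with -0.12 and an interval of -0.41 to 0.17. Hdac3, the catalytic subunit of the NCoR and SMRT complexes, differed by 0.01 (SE 0.15).

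The class IIa deacetylases shuttle between nucleus and cytoplasm and act through HDAC3. Hdac4 differed by -0.01 (SE 0.12) and Hdac5 by 0.04 (SE 0.14) at its brightest probe. The other Hdac5 probes gave 0.16 and 0.40, and the last of these, ILMN_1213290, was at 8.49, 8.31 and 8.16 in the knockout and 7.83, 7.86 and 8.08 in the control brains. At that probe every knockout array lay above every control array (unadjusted p = 0.0257, adjusted p = 0.999, limma), while at the brightest probe the groups overlapped.

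Hdac7, best known for keeping vessel walls intact through its expression in endothelium, was at 9.90, 10.46 and 9.74 in the knockout and 10.33, 10.44 and 10.31 in the control brains. Knockout replicates 1 and 3 were the lowest arrays, while knockout replicate 2 was the highest. The difference was -0.33 (SE 0.20, unadjusted p = 0.139, limma) and -0.54 without knockout replicate 2 (unadjusted p = 0.00559, limma). Without that array 869 probes passed the unadjusted threshold, against 632 with all arrays, and the lowest adjusted p of any probe was 0.679. Knockout replicate 2 was the array with the lowest endothelium and pericyte markers, of which 7 of 10 were measured, 6 lower in the knockout, with a summed intensity of 3432 to 6712 in the knockout and 6128 to 7323 in the control brains. The part of vessel cells in the Hdac7 values was not tested.

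SIN3 proteins are scaffolds without catalytic activity. Sin3a was at 11.99, 12.22 and 12.19 against 12.13, 12.14 and 11.87, and Sin3b at 7.37, 7.07 and 6.85 against 7.10, 6.82 and 6.96. The groups overlapped for both scaffolds, with differences of 0.08 (SE 0.14) and 0.14 (SE 0.17). Sap18, which encodes a small SIN3-associated protein also found in RNA splicing complexes, had the largest difference above 0 among the 42 measured members. It was at 7.86, 7.26 and 6.73 in the knockout and 6.79, 6.57 and 7.02 in the control brains. Knockout replicates 1 and 2 were above every control array and knockout replicate 3 was below all but control replicate 2. The difference was 0.49 (SE 0.29, unadjusted p = 0.13, limma), and 0.19 when the background was not corrected. It lay between 0.21 and 0.77 when single arrays were left out, with an unadjusted p of 0.0177 without knockout replicate 3 (limma). In that fit 928 probes passed the unadjusted threshold, against 632 with all arrays, and the lowest adjusted p of any probe was 0.195. With the Xist level as a covariate the Sap18 difference was 0.70 (unadjusted p = 0.0195, limma). Sap30, which stabilises the SIN3 and HDAC core, had -0.10 (SE 0.14), at 14.19, 14.02 and 14.15 against 14.34, 14.32 and 14.00. The 4 probes of Rbbp7, a histone chaperone shared by SIN3, NuRD and PRC2, lay between 0.05 and 0.14, and its brightest was at 11.29, 11.35 and 11.58 against 11.49, 11.27 and 11.30, with overlapping groups.

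The G9a group holds the enzymes of H3K9 methylation, with 5 of 6 genes measured and a median of -0.01. G9a (Ehmt2) and GLP (Ehmt1) work as a heterodimer. Ehmt2 was at 12.41, 12.47 and 11.995 in the knockout and 12.22, 12.56 and 12.27 in the control brains. Its difference was -0.06 (SE 0.17) with overlapping groups, and its second probe gave 0.05.

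Ehmt1 had 4 tested probes that did not point one way. The brightest, ILMN_2683675, was at 12.94, 13.23 and 13.06 against 13.03, 13.02 and 12.96, a difference of 0.08 (SE 0.12). ILMN_2603660 was at 9.91, 10.48 and 10.04 against 10.41, 10.65 and 10.68, a difference of -0.44 (unadjusted p = 0.0478, adjusted p = 0.999, limma). All 3 knockout arrays were below the control mean at that probe, but knockout replicate 2 lay above control replicate 1. The remaining probes gave 0.49 and -0.36, and the positions of the probes in the transcript were not analysed here.

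Cdyl encodes a chromodomain protein that links REST to G9a, and it had the lowest p of this group. It was at 8.74, 9.03 and 9.18 in the knockout and 8.67, 8.76 and 9.08 in the control brains, overlapping, with a difference of 0.14 (SE 0.17, unadjusted p = 0.438, limma). Suv39h2 and Setdb1, which encode H3K9 trimethylases of heterochromatin and of silenced retroelements, had differences of -0.01 (SE 0.23) and -0.03 (SE 0.13). Suv39h2 was at 8.63, 8.13 and 7.77 against 8.23, 8.02 and 8.31, with the highest and the lowest arrays both in the knockout.

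Polycomb genes, 7 of 9 measured, had a median of 0.05, and PRC2 and PRC1 genes are given apart. PRC2 places H3K27 methylation. Ezh2, its main catalytic subunit in dividing progenitors, was at 12.43, 12.89 and 12.70 in the knockout and 12.53, 12.31 and 12.92 in the control brains, with a difference of 0.09 (SE 0.20) and of -0.19 at its second tested probe. Eed, which reads the mark, had -0.04 (SE 0.15). Suz12, the PRC2 scaffold, was at 13.98, 13.99 and 14.00 against 14.00, 13.89 and 14.35, so that the knockout arrays lay within the control range. Ezh1, the paralog of resting cells, had 2 probes, detected on 2 and 0 of the 6 arrays. The first was at 6.42, 6.74 and 5.86 in the knockout and 5.92, 5.87 and 6.97 in the control brains, near background on every array.

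PRC1 adds ubiquitin to H2A. The 4 measured PRC1 genes had differences above 0, of 0.05 to 0.17, as did 4585 of all 9408 genes, and 0 of 4 passed the unadjusted test. Bmi1 and Rnf2 changed sign with single arrays left out. Other PRC1 genes outside the members lay on both sides of 0, from -0.33 for Pcgf5 to 0.20 for Pcgf1. Bmi1, which sustains neural stem cell self-renewal, had the lowest p of the polycomb genes, at 10.20, 10.09 and 10.17 against 10.21, 9.77 and 10.15. Its lowest array was control replicate 2, and the difference was 0.11 (SE 0.15, unadjusted p = 0.498, limma). Rnf2, which encodes the ubiquitin ligase RING1B, was at 11.24, 10.49 and 10.30 against 10.56, 10.50 and 10.48. Knockout replicate 1 alone stood above the rest, and the difference of 0.17 (SE 0.24) spanned -0.12 to 0.36 when single arrays were left out. Its paralog Ring1, at 11.88, 11.83 and 11.71 against 11.84, 11.73 and 11.73, had 0.05 (SE 0.11) and Cbx2, which binds H3K27 methylation, had 0.05 (SE 0.11). Cbx7, a related reader, was detected on 2 of 6 arrays.

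The BAF, NuRD and FACT genes, which move or remodel nucleosomes, had a median of 0.01 over 7 of 9 measured. Smarca4 encodes BRG1, an ATPase that REST can bring to its sites, and it had -0.07 (SE 0.14). Smarcc1 and Smarcc2 encode BAF155 and BAF170, core subunits whose balance changes during cortical development. Smarcc1 was at 10.98, 11.54 and 11.10 in the knockout and 11.09, 11.12 and 11.07 in the control brains. Smarcc2 was at 11.93, 12.21 and 11.61 against 11.95, 12.08 and 11.85. Knockout replicate 2 was the highest array for both paralogs, and the differences were 0.11 (SE 0.17) and -0.05 (SE 0.18). Smarce1, the BAF57 subunit, was at 14.00, 14.20 and 13.98 against 13.98, 14.11 and 14.04, a difference of 0.01 (SE 0.12).

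NuRD joins a remodeller to the deacetylases. Mbd3, its methyl-CpG-domain subunit that in mammals does not bind methylated DNA tightly, had the lowest p of this group. It was at 11.87, 11.85 and 11.48 in the knockout and 11.49, 11.55 and 11.44 in the control brains. Knockout replicates 1 and 2 were above every control array and knockout replicate 3 was among them, for a difference of 0.24 (SE 0.14, unadjusted p = 0.142, limma). Without knockout replicate 3 the difference was 0.36 (unadjusted p = 0.0262, limma), in a fit where the lowest adjusted p of any probe was 0.195. Mta1, another NuRD subunit, had 0.22 (SE 0.18). Chd4, the remodelling ATPase, had -0.08 (SE 0.12) at its brightest probe and 0.31 and 0.29 at the others. Mbd2, the methyl-CpG reader, was detected on 0 arrays.

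The demethylases and the genes of REST turnover had a median of -0.02 over 7 of 7 genes. Kdm5c, an H3K4 demethylase gene on the X chromosome that escapes inactivation, was at 7.91, 7.39 and 7.03 in the knockout and 6.52, 7.06 and 8.04 in the control brains. Among the Xist-high arrays 2 held the highest Kdm5c values and control replicate 1 held the lowest. The difference was 0.23 (SE 0.40) with the widest interval of the 42 measured members, -0.72 to 1.19, and -0.43 at a second probe. Kdm6b, which encodes the H3K27 demethylase JMJD3 and opposes polycomb, was at 12.68, 12.70 and 12.503 against 12.58, 12.29 and 12.63, a difference of 0.13 (SE 0.14).

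Of the 5 genes of REST turnover, 4 had differences below 0, as did 4823 of all 9408 genes. CTDSP1, CTDSP2 and CTDSPL are small phosphatases of RNA polymerase II that REST brings to neuronal genes, and CTDSP1 also removes a phosphate from REST that would mark it for destruction. Ctdsp1 was at 9.18, 8.74 and 9.29 in knockout replicates 1 to 3 and at 9.38, 9.43 and 9.44 in control replicates 1 to 3. Every knockout array was below every control array, as in 5.07% of all genes, and knockout replicate 2 was the lowest. The difference was -0.35 (SE 0.17, 95% interval -0.74 to 0.05, unadjusted p = 0.0752, limma), the lowest p of the 42 measured members, and it was -0.18 without knockout replicate 2.

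The other Ctdsp1 probes were below 0 as well. ILMN_2714397 was at 6.45, 7.23 and 7.17 against 7.47, 7.77 and 7.52, with the groups apart, knockout replicate 1 the lowest, and a difference of -0.64 (SE 0.23, unadjusted p = 0.0269, adjusted p = 0.999, limma). It was detected on 2 of 3 knockout arrays and 3 of 3 control arrays. ILMN_3130055 was at 8.51, 8.22 and 8.51 against 8.58, 8.91 and 8.35, where control replicate 3 lay below knockout replicates 1 and 3, with a difference of -0.20. The mean of the 3 probes gave -0.40 (unadjusted p = 0.0228, limma). In that fit the lowest adjusted p of any gene was 0.967 (limma).

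Ctdspl was at 8.94, 8.81 and 9.36 in the knockout and 9.21, 9.66 and 9.23 in the control brains. Knockout replicates 1 and 2 were the lowest arrays, knockout replicate 3 lay among the controls, and the difference was -0.33 (SE 0.20, unadjusted p = 0.14, limma). Without knockout replicate 3 it was -0.49 (unadjusted p = 0.0401, limma), in a fit where the lowest adjusted p of any probe was 0.195. Ctdsp2 was at 12.68, 12.11 and 12.65 against 12.68, 12.47 and 12.56, where knockout replicate 2 alone was low. Its difference was -0.09 (SE 0.18) with that array and 0.09 without it.

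**Figure D2:**
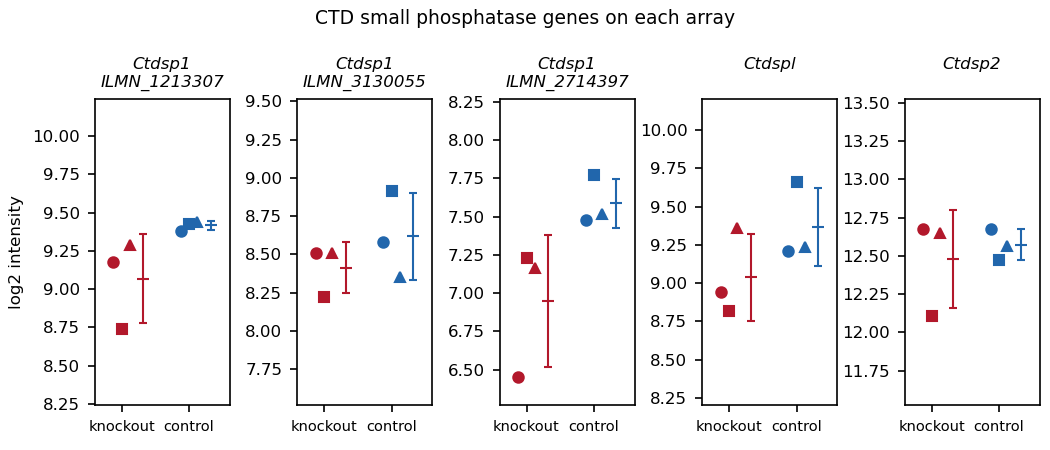
Log2 intensity of each tested probe of the CTD small phosphatase genes on each array (replicates 1 to 3 as circles, squares and triangles), with the mean and SD of 3 arrays beside the points. All panels span the same width on the log2 scale, and knockout replicate 2 is the lowest array in all panels except that of the Ctdsp1 probe ILMN_2714397, where knockout replicate 1 is lowest.

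These phosphatases are known to be expressed outside neurons, and some marker lists of cells outside the neural lineage were low on the array of knockout replicate 2, where the microglial median stood at 0.10. Of the markers of mesenchyme and meninges, 9 of 9 were measured and 9 were lower in the knockout. They summed to between 1425 and 10920 in the knockout and between 8210 and 13050 in the control brains. The median of that list was -1.20 with and -0.12 without knockout replicate 2, and Ctdsp1 kept a difference below 0 when each array was left out in turn, between -0.46 and -0.18. The part of mesenchymal cells in the Ctdsp1 values was not tested. Btrc encodes the ubiquitin ligase subunit that tags REST for destruction, and it had 0.13 (SE 0.15). Usp7, which encodes a ubiquitin protease that removes the tag, had -0.02 (SE 0.18).

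Where a gene had several tested probes, they measured the same difference differently. Of 12 such members, 6 had all probes on one side of 0 (Hdac5, Rbbp7, Smarcc1, Smarce1, Ctdsp1 and Btrc) and 6 had probes on both sides (Ehmt1, Ehmt2, Ezh2, Chd4, Kdm5c and Kdm6b). Probes of Ehmt1 spanned 0.93 on the log2 scale and those of Smarce1 spanned 0.02.

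**Figure D3:**
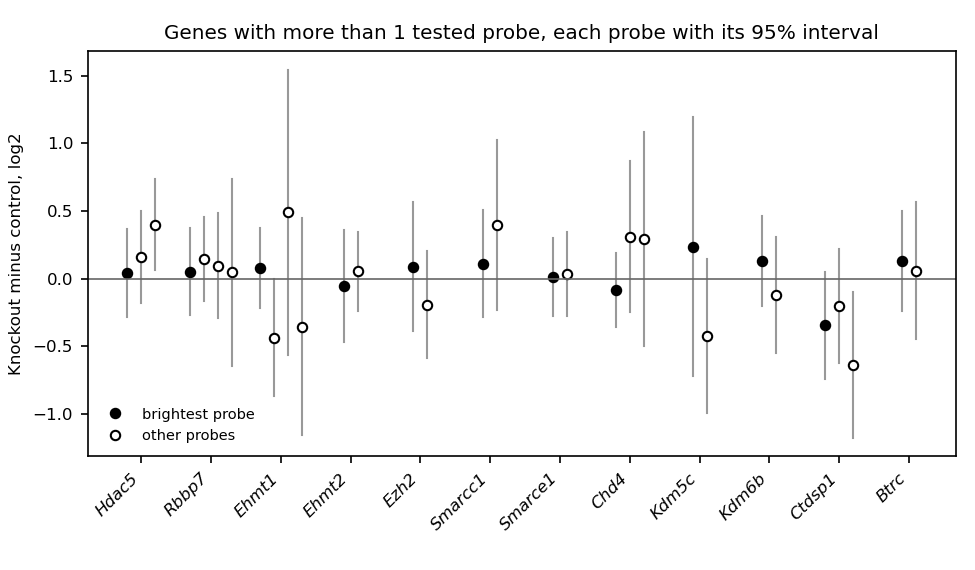
Knockout minus control on the log2 scale for each tested probe of the 12 member genes with more than 1, with 95% intervals from limma. Filled points are the brightest probe of each gene, and the Ctdsp1 probes lie between -0.64 and -0.20 while those of Ehmt1 lie on both sides of 0.

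Across arrays, the members did not move as a block. The median of the 42 members, relative to the control mean, was -0.01, 0.09 and -0.06 on knockout arrays 1 to 3 and between -0.02 and 0.00 on the control arrays. Knockout replicate 2 was the highest of the 6 arrays for 12 of 42 members and the lowest for 6, knockout replicate 3 the highest for 4 and the lowest for 14, and knockout replicate 1 the highest for 11 and the lowest for 2. The 3 knockout arrays thus lay on both sides of the controls, and the typical size of a deviation was 0.12, 0.17 and 0.12 against 0.08 to 0.10 on the control arrays, from whose mean the deviations were taken.

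**Figure D4:**
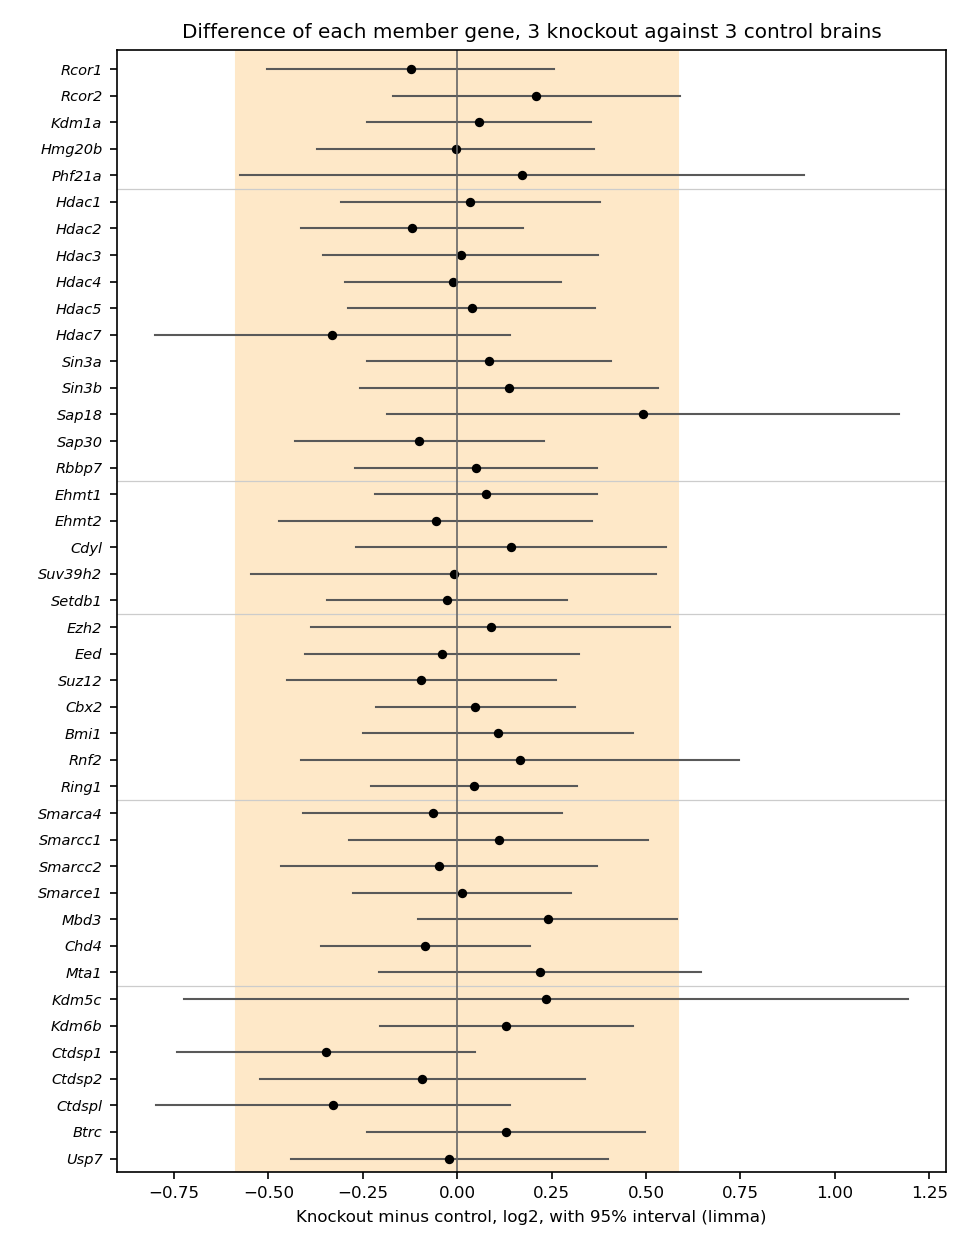
Difference of each of the 42 tested member genes, knockout minus control on the log2 scale, with its 95% interval from limma over 3 knockout and 3 control arrays, in the same order of groups, and a shaded band for changes within 1.5-fold. All 42 intervals include 0, and 33 lie within the band.

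A further list of 79 genes of the same complexes, such as other SIN3, polycomb, BAF and NuRD subunits, gave 56 measured genes, 27 above 0 and 29 below, with a median of -0.01. At an unadjusted p under 0.05 it had 1 gene higher and 0 lower, or 1.79% against 4.17% of all genes. That gene was Cbx1, which encodes the heterochromatin protein HP1 beta that binds H3K9 methylation, at 9.33, 9.37 and 9.53 in the knockout and 8.89, 8.95 and 9.30 in the control brains. Its knockout arrays all lay above its control arrays, with a difference of 0.36 (SE 0.15, unadjusted p = 0.0474, adjusted p = 0.999, limma). The groups lay apart for 10 of the 56 genes, 6 higher and 4 lower, or 17.9% against 9.07% of all genes, and 1 gene, the Y-linked Kdm5d, passed 1.5-fold, at 5.29, 10.41 and 10.25 in the knockout and 5.20, 10.69 and 5.70 in the control brains. Its 3 high values were those of the Xist-low arrays, in both genotypes.

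Members were also searched for letters of the REST element in RefSeq promoter windows (GRCm38.p6), which run from 250 bases before to 50 after each start. Of the 52 members, 44 had an entry, with 59 windows. The longest pattern searched was TTCAGCACC followed after 2 bases of any kind by GGACAG, matched exactly on both strands. It was in 0 member windows and in 0.0122% of 32851 windows of all genes. Its left part alone was in 0 member windows and in 0.371% of all windows. The right part alone was in windows of 8 members (Chd4, Ctbp2, Ctdsp1, Ehmt2, Hdac7, Mbd3, Rcor2 and Smarcc2), or 18.2% of member genes against 24.7% of all genes. The parts overlap with the longest pattern, and the search covers these windows and letters alone. With 4 windows among 32851, the longest pattern was too rare for 0 of 59 to show whether members have REST sites. The REST sites that the paper tested in the glycine receptor gene and Snap25 lie further into the genes than these windows reach.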

How the data were processed

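Total RNA was hybridised to Illumina mouse Ref8 BeadChips. BeadStudio was used by the authors to read the arrays and lumi to quantile-normalize them (lumi's version is not given in the sources used here), and the deposited intensity values are on a linear scale. The deposited detection p-value compares each probe with negative control beads. In the table, 2 empty ID cells displaced later probe IDs by 2 lines (84.9% of lines). These cells were dropped and IDs paired with values in order, which kept 25696 probes. Among probes of the same gene on adjacent lines, mean levels correlated at r = 0.473 with this pairing and 0.258 as deposited.

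Values were background-corrected, quantile-normalized and log2-transformed with neqc (offset 16) in limma 3.58.1, R 4.3.3. The deposited values differed by at most 1.61% between arrays at equal rank. The background was therefore corrected after a first normalization, and the arrays were normalized again. Probes with a detection p-value under 0.05 on at least 3 of 6 arrays were tested with lmFit and eBayes, two-sided, with no covariates, and adjusted over 13755 probes (Benjamini-Hochberg). The code was tested on simulated data. A gene took its brightest tested probe. Levels are not compared between probes. The number of arrays limits the precision. The labels call the samples biological replicates.

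All members are reported, with values per array for those with a p under 0.05 or over 1.5-fold, the lowest p and the brightest gene of each group, and the paralog pairs of Rcor1, Hdac1, Ezh1, Smarcc1, Ehmt1, Suv39h1, Rbbp4 and Ctbp1. The members and lists were chosen with earlier results of these data known. Alternatives covered background, filters, ID pairing, array weights, the methods' t-test, Xist as a covariate, the replicate block and single arrays left out.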

Additional observations from a re-analysis of the deposited data

How the results depend on the processing

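At an adjusted p under 0.05 the member count was 0 under each alternative. It covered all 42 members except with probe IDs as deposited, where 30 could be tested, and with detection on all 6 arrays, where Kdm5c was not. At an unadjusted p under 0.05 the member count was 0 in the main setting and 1 with probe IDs as deposited, with array weights, with the Xist level as a covariate and with the mean of all tested probes, and it ran from 0 to 4 when single arrays were left out (4 without knockout replicate 3 and 1 without knockout replicate 2). The count over all 13755 probes was 632 in the main setting and with IDs as deposited, 765 with array weights and 619 with the Xist level as a covariate. It was 928 without knockout replicate 3, 869 without knockout replicate 2 and 481 to 928 with single arrays left out. With no filter on detection it was 1169 (25696 probes tested). These are counts of probes, while the member counts are of genes. The members' median difference was 0.04. It ran from 0.02 to 0.07 with single arrays left out, and was 0.01 with the mean of all tested probes. Rcor2 was at -0.52 with IDs as deposited, where the name is paired with other values.

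Deviations from the group means correlated at -0.01, -0.08 and -0.15 between samples with equal replicate numbers. With unequal numbers the correlations ran from -0.03 to 0.12. Deviations sum to 0 within each group, which constrains these values, so they cannot show whether the numbers pair the samples. With the replicate block, 552 probes and 0 members passed the unadjusted threshold and the members' median was 0.04. Over the alternatives, the difference of a single member changed neither its call nor, where it was under its own SE, its value by more than the spread within groups in 725 cases. It moved by more than that spread in 9 (in 1, Hdac4 with IDs as deposited, past the unadjusted threshold). It reversed in 1 (Rcor2, whose difference exceeded its SE) and otherwise came past the threshold in 8, for Ctdsp1, Ctdspl, Hdac7, Mbd3 and Sap18. A change of sign in a difference under its own SE counted among the 725 unless it exceeded that spread. Directions were therefore not stable for many members. With single arrays left out, Rcor1 ran from -0.21 to 0.03, Rnf2 from -0.12 to 0.36 and Suv39h2 from -0.23 to 0.19. With 3 arrays per group, the intervals of 9 of 42 members at their brightest probe allowed differences beyond 1.5-fold.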
